A study of Mus musculus with 4 samples.

Results

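A set of 8 genes that write, remove or read DNA methylation was followed in CD4 T cells carrying ectopic Tox: the methyltransferase genes *Dnmt1*, *Dnmt3a* and *Dnmt3b*, the dioxygenase genes *Tet1*, *Tet2* and *Tet3*, the glycosylase gene *Tdg* and the methyl-CpG reader gene *Mbd2*. They were chosen by symbol, and all 8 were found among the 24369 genes of the expression tables and had enough counts to be tested. The cells were naïve CD4 T cells from the spleens of WT C57BL/6 mice, activated under unpolarized conditions with anti-CD3, anti-CD28 and IL-2 and transduced on day 2 with a retrovirus encoding eGFP alone (MSCV-IRES-eGFP, empty vector, EV RV) or together with Tox (MSCV-Tox-IRES-eGFP, Tox RV). On day 5 they were restimulated for 5 h through CD3 (the study's text differs on whether anti-CD28 was also added) and sorted for GFP, so both groups share the activation, the viral backbone and the sort, and the added Tox came from the viral construct, alongside the cells' own gene. RNA-seq was performed on 2 libraries per group, which the study describes as biological replicates, and the age of the mice is not given in the sources used here.

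Methylation of cytosine at CpG sites is laid down de novo by Dnmt3a and Dnmt3b and copied to the new strand after replication by Dnmt1, which Uhrf1 brings to hemimethylated DNA. The Tet enzymes oxidize 5-methylcytosine with 2-oxoglutarate as cosubstrate, Tdg excises the most oxidized forms, and base excision repair then restores an unmethylated cytosine. Mbd2 binds methylated CpGs and recruits the NuRD chromatin remodelling complex. In CD4 T cells DNA methylation and its readers are known for holding cytokine genes silent in the wrong lineage, and the Tet enzymes for keeping the *Foxp3* locus demethylated in Treg cells.

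The libraries held 46989997 to 74548723 expected counts, the estimates of fragments per gene. Levels are in TPM (transcripts per 1000000, a level per transcript length), with replicate 1 before replicate 2 in each group. *Tox* was at 7.22 and 3.37 TPM under EV RV, against 69.1 and 56.9 TPM under Tox RV, on the side of the labels in all 4 libraries. EV RV replicate 1 stood apart from the other 3. The 45S pre-ribosomal RNA *Rn45s* took 24.8% of its counts, against 7.14% to 11.97% elsewhere, and the first principal component placed it at -53.8 against 5.70 to 25.8. All 8 markers of CD4 T cell identity were expressed, at a summed 2212 to 2807 TPM. The 2 CD8 T cell markers summed to 3.32 to 4.98 TPM. The 5 B cell markers, 2 of them tested, summed to 1.66 to 2.28 TPM, with *Ms4a1* and *Pax5* at 0. The 7 myeloid markers, 4 of them tested, summed to 2.66 and 2.40 TPM under EV RV, against 2.14 and 1.38 TPM under Tox RV. The 5 NK cell markers, 4 of them tested and *Ncr1* at 0, summed to 91.1 and 58.1 TPM under EV RV, against 62.0 and 37.5 TPM under Tox RV. The NK sums overlapped between the groups and, like the Tet sums below, were highest in EV RV replicate 1. *Klrd1* (33.2 and 4.21 TPM under EV RV, 21.9 and 4.26 under Tox RV) and *Klrk1* were highest there too. So was *Klrb1c*, at no more than 0.73 TPM. *Eomes* was highest in EV RV replicate 2 instead (37.3 and 48.3 TPM under EV RV, 31.03 and 30.65 under Tox RV). The presence of NK cells and their part in the results were not tested. Fewer cells of a type and less RNA per cell cannot be told apart in bulk samples.

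The 8 genes spanned a wide range of levels, led by the maintenance enzyme. *Dnmt1* was the most abundant at a mean of 123 TPM over the 4 libraries, followed by *Mbd2* at 84.2, *Tdg* at 62.4, *Dnmt3a* at 42.6, *Tet3* at 21.6, *Tet2* at 18.9, *Dnmt3b* at 6.36 and *Tet1* at 0.652 TPM. In this order only the neighbours *Tet3* and *Tet2* overlapped in their ranges over the 4 libraries. *Dnmt1* ranked above 93.7% and *Tet1* above 14.3% of the 14143 genes tested by mean TPM. *Dnmt3a* was the main de novo enzyme, at 6.45 and 5.74 times the TPM of *Dnmt3b* in EV RV replicates 1 and 2 and 7.53 and 7.38 times in Tox RV replicates 1 and 2. *Tet1* gave 1.46% to 1.72% of the summed Tet TPM, and *Tet2* and *Tet3* supplied the rest.

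**Figure D1:**
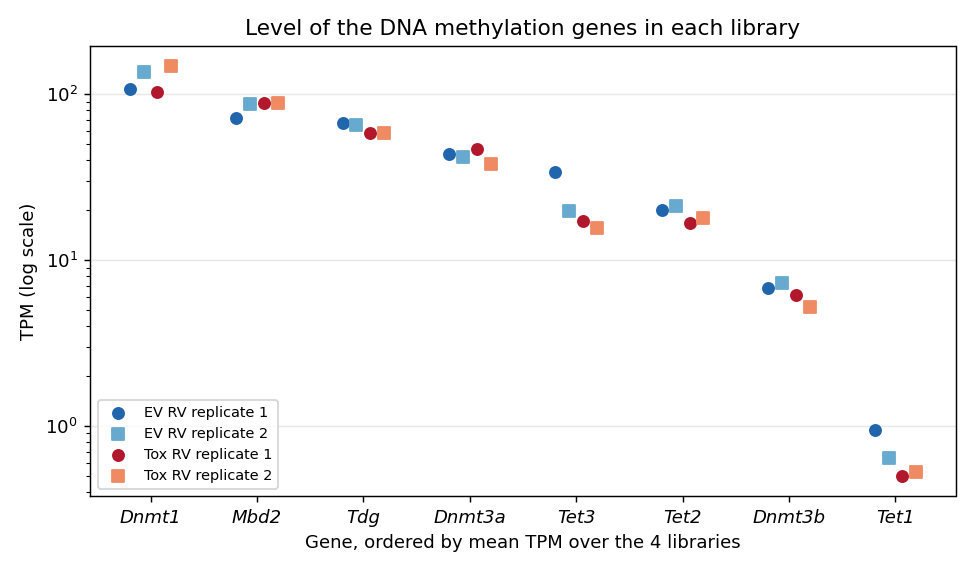
Level of each of the 8 genes in TPM on a log scale, with the genes ordered by their mean over the 4 libraries and 1 point per library (EV RV blue, Tox RV red, circles for replicate 1 and squares for replicate 2). *Dnmt1* lies highest and *Tet1* lowest, and the clearest spread within a group is that of *Tet3* in EV RV, from 19.9 to 33.8 TPM.

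To ask whether ectopic Tox altered these genes, the groups were compared by edgeR's quasi-likelihood test over all 14143 genes with enough counts, and the p-values are from this test unless another tool is named. None of the 8 genes passed: 0 of 8 had an adjusted p-value below 0.05, as did 0 of 14143 genes overall (0%). The smallest adjusted p-value of any gene in this edgeR test was 0.49, so *Tox* itself did not pass. Since the test missed even the transduced gene, the lack of calls does not show that the 8 were unaltered. Of the 8, 0 had an unadjusted p-value below 0.05, against 3.62% of all genes (2.55% lower and 1.07% higher in Tox RV). DESeq2, the tool named in the methods, called 0 of the 8 after adjustment, against 0.156% of the same 14143 genes, and 1 of the 8 (*Tet3*) at an unadjusted p-value below 0.05, against 4.21% of them. Without regard to the test, 5 of the 8 genes (*Dnmt3b*, *Tet1*, *Tet2*, *Tet3* and *Tdg*) lay lower in each Tox RV library than in either EV RV library, an arrangement found in 17.4% of all genes. *Mbd2* was higher in both, as were 18.6% of all genes, and *Dnmt1* and *Dnmt3a* overlapped. These 5 were also the genes with a log2 fold change below 0, as were 49.6% of all genes. The median log2 fold change (Tox RV against EV RV) of the 8 was -0.14, beside 0.0036 over all genes tested. It was -0.18 without EV RV replicate 1 and -0.08 without EV RV replicate 2, beside 0.003 and 0.019 over all genes. With upper-quartile scaling in place of TMM scaling it was -0.17, beside -0.03 over all genes. With library totals it was -0.02, but the median of all genes then moved to 0.12. With 2 libraries against 2, an exact permutation test of a single gene cannot go below p = 0.333.

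**Figure D2:**
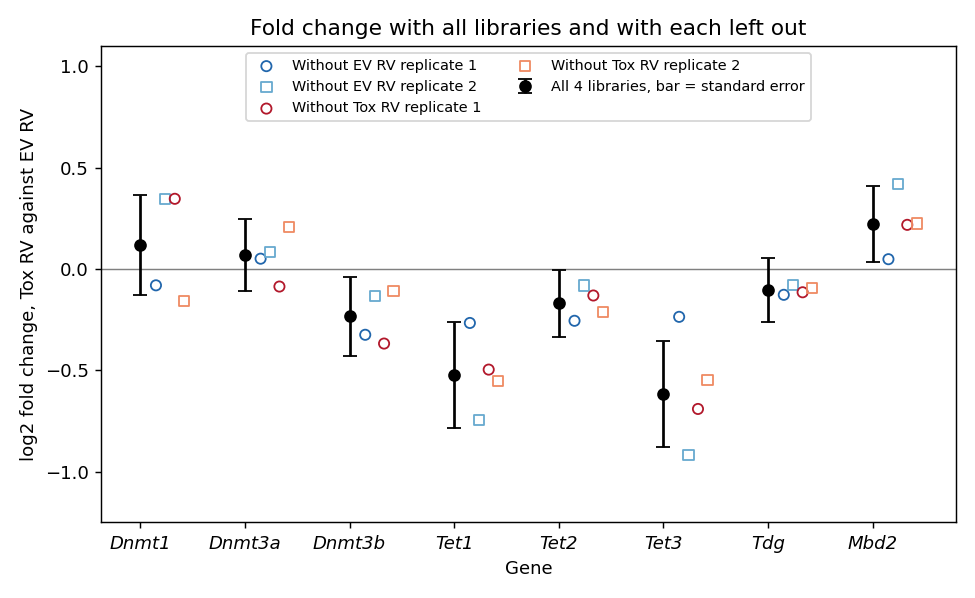
Log2 fold change of each gene, Tox RV against EV RV, from edgeR's quasi-likelihood fit (black, bar = standard error, n = 2 libraries per group), with the value after leaving out each library as open symbols. *Tet3* and *Tet1* move furthest with the choice of EV RV library, and *Dnmt1* and *Dnmt3a* cross 0.

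The 3 Tet genes were lower in both Tox RV libraries in CPM and in TPM, though none passed the test. *Tet3* encodes the Tet enzyme known for its action in the zygote. It lies on chromosome 6 between positions 83362373 and 83459084 of mm10 (minus strand) and, like the other 7, codes for protein. *Tet3* was at 33.8 and 19.9 TPM under EV RV (replicates 1 and 2), against 17.1 and 15.6 TPM under Tox RV. The EV RV libraries differed from each other by more than EV RV replicate 2 differed from either Tox RV library. Its log2 fold change was -0.62 (standard error 0.26, interval at 95% from -1.26 to 0.03, edgeR adjusted p = 0.897), rank 612 of the genes tested by unadjusted p-value. It was -0.24 without EV RV replicate 1 and -0.92 without EV RV replicate 2. The latter fit, in which EV RV replicate 1 was the lone control and assumed to vary like the other libraries, gave *Tet3* an adjusted p-value of 0.0355 and called 600 genes in all.

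*Tet2*, the family member most often mutated in blood cancers, lies on chromosome 3 from 133463679 to 133545139 (minus strand). It was at 19.9 and 21.2 TPM under EV RV, against 16.7 and 17.8 TPM under Tox RV. In TPM the EV RV libraries lay close together and both Tox RV libraries lay below them. In CPM *Tet2* was at 107.9 and 120.7 under EV RV, against 98.3 and 104.8 under Tox RV. There the EV RV libraries differed by more than the gap between the groups. The log2 fold change of *Tet2* was -0.17 (standard error 0.17, edgeR adjusted p = 0.897), with an interval from -0.58 to 0.24. It was -0.26 without EV RV replicate 1 and -0.08 without EV RV replicate 2. With library totals in place of TMM it was -0.05, where the median of all genes moved to 0.12.

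*Tet1*, best known from embryonic stem cells, lies on chromosome 10 from 62804570 to 62908996 (minus strand). It was at 0.940 and 0.640 TPM under EV RV, against 0.500 and 0.530 TPM under Tox RV, from rounded counts of 332, 426, 289 and 248. The gene is long, so that even a low level rested on a fair number of counts. The log2 fold change was -0.52 (standard error 0.26, edgeR adjusted p = 0.897), -0.27 without EV RV replicate 1 and -0.75 without EV RV replicate 2.

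The summed TPM of the 3 Tet genes was 54.7 and 41.7 under EV RV, against 34.3 and 34.0 under Tox RV, while that of the 3 Dnmt genes was 158, 185, 156 and 191 in the same order. The ratio of the Dnmt sum to the Tet sum was therefore 2.89 and 4.44 under EV RV, against 4.53 and 5.61 under Tox RV, lowest in EV RV replicate 1 and apart between the groups by a margin far smaller than the gap between the EV RV libraries. *Tet3* and *Tet2* were at a ratio of 1.70 in EV RV replicate 1 and 0.877 to 1.03 in the other libraries, so that *Tet3* gave 61.8% of the summed Tet TPM there and 46.0% to 49.9% elsewhere.

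The promoters of the 3 Tet genes, from 250 bases before to 50 bases after the annotated start, are shown because these genes lay lower together. The sequences are from RefSeq on GRCm38.p6, the mm10 build, 5′ to 3′ on the strand of the gene, and the capitals mark each CpG, the site these enzymes act on. Tet1 (chr10:62887275-62887574) holds 17 CpGs, Tet2 (chr3:133544341-133544640) 57 and Tet3 (chr6:83441629-83441928) 22. All 3 windows lie inside the gene spans given above, which are from GENCODE, so any starts further upstream were not examined.
Tet1: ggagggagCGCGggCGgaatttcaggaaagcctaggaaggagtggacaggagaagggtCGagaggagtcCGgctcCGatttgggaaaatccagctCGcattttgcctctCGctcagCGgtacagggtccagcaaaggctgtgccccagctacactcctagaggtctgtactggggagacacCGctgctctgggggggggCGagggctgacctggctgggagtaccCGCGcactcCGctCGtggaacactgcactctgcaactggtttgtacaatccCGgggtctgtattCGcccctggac
Tet2: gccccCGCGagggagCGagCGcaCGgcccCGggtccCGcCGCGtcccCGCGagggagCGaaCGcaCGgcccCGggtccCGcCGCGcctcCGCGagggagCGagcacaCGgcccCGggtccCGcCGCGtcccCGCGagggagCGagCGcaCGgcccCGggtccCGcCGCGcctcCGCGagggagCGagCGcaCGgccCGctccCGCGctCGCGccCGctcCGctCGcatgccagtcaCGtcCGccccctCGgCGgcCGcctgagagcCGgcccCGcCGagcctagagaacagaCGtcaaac
Tet3: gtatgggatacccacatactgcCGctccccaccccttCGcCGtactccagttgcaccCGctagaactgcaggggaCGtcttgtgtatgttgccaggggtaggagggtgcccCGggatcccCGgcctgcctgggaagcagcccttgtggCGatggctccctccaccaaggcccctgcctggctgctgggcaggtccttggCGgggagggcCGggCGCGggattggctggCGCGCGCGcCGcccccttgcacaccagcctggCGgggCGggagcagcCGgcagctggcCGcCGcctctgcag
Across 32841 promoters of the same length the median was 7 CpGs, and 68.6%, 99.8% and 76.9% of them held fewer than those of *Tet1*, *Tet2* and *Tet3*. The BATF and JunB recognition letters TGANTCA, searched on both strands, were found in 7.8% of all promoters and in none of these windows, nor in the windows of *Dnmt1*, *Dnmt3a*, *Dnmt3b* and *Tdg*. At that share, so few windows would often hold none, so the absence says nothing about binding. Sites outside the windows were not searched, and *Mbd2* had no window.

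*Dnmt3b* lies on chromosome 2 from 153649450 to 153687730 (plus strand) and was the weakest of the methyltransferase genes, at 6.77 and 7.32 TPM under EV RV, against 6.18 and 5.18 TPM under Tox RV. Both Tox RV libraries were the lower ones, with Tox RV replicate 2 the lowest. For *Dnmt3b* the log2 fold change was -0.23 (standard error 0.19, interval from -0.71 to 0.25, edgeR adjusted p = 0.897). It was -0.37 without Tox RV replicate 1 and -0.11 without Tox RV replicate 2. *Dnmt3c*, a rodent copy that acts in the male germline, is 93.9% identical to *Dnmt3b* over 1434 aligned transcript bases, so reads from it could be counted under *Dnmt3b*. *Dnmt3l*, the catalytically inactive cofactor of the de novo enzymes, had 1 count in EV RV replicate 1 and 0 in the other libraries, under the floor of 3 counts per library.

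*Dnmt3a* (chromosome 12, 3806007 to 3914443, plus strand) was at 43.6 and 42.0 TPM under EV RV, against 46.5 and 38.2 TPM under Tox RV. The Tox RV libraries lay on either side of the EV RV libraries. For *Dnmt3a* the log2 fold change was 0.07 (standard error 0.18, interval from -0.37 to 0.51, edgeR adjusted p = 0.949), with -0.09 without Tox RV replicate 1 and 0.21 without Tox RV replicate 2. The antisense gene *Dnmt3aos* overlaps it, and use of strand in the counting is not stated, but *Dnmt3aos* held only 59 to 119 counts where *Dnmt3a* held 10519 to 19262. RSEM's abundance-weighted transcript length for *Dnmt3a*, which would move if the reads shifted between its 3 transcripts of unequal length, was 9697 and 9720 bases under EV RV, against 9697 and 9705 bases under Tox RV. The same measure varied by at most 27.5 bases over the 4 libraries for *Dnmt1*, *Dnmt3b* and *Tdg*, which also have several transcripts. For *Tet1* it was 13986 bases in Tox RV replicate 2 and 14066 to 14082 bases in the others.

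*Dnmt1* (chromosome 9, 20907209 to 20959888, minus strand) differed far more within the groups than between them. It was at 107 and 136 TPM under EV RV, against 103 and 147 TPM under Tox RV. Replicate 1 was the lower library in each group and the groups overlapped almost fully. Its log2 fold change was 0.12 (standard error 0.25, interval from -0.50 to 0.73, edgeR adjusted p = 0.935), beside log2 differences of -0.41 and -0.51 between replicates 1 and 2 within EV RV and Tox RV. It was -0.08 without EV RV replicate 1 and -0.16 without Tox RV replicate 2, but 0.35 without Tox RV replicate 1.

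Of the 79 other genes tested in the 8 and in the related lists below, the one whose profile over the 4 libraries lay nearest to that of *Dnmt1* was *Mcm4*, a subunit of the replicative helicase (root mean square difference of centred log2 CPM 0.056), and the next was *Mcm2* (0.061). CPM are counts per 1000000 scaled by TMM. The 15 S phase genes summed to 1041 and 1521 TPM under EV RV, against 1037 and 1504 TPM under Tox RV, low and high in the same libraries as *Dnmt1*. In 0 of the 15 were the groups apart, against 36.0% of all genes, and their part in the level of *Dnmt1* was not tested. *Uhrf1*, at 85.5, 150, 95.1 and 149 TPM, and *Pcna*, at 384, 633, 478 and 657 TPM, were arranged in the same way. With 4 libraries such a likeness is a description only, since all profiles share the same libraries.

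**Figure D3:**
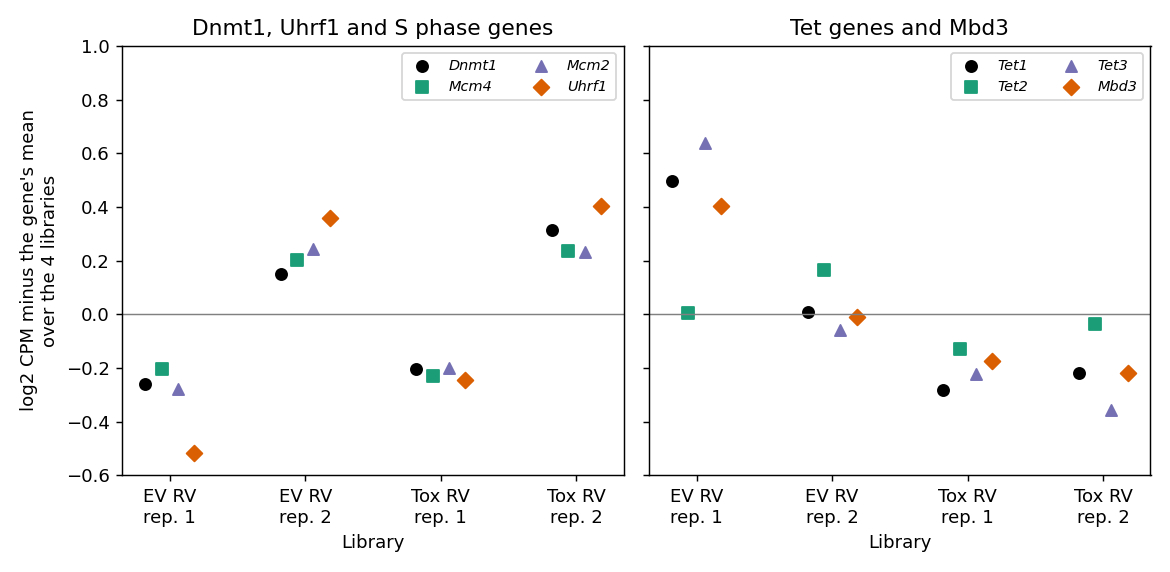
Log2 CPM of single genes minus their mean over the 4 libraries, with *Dnmt1*, *Uhrf1*, *Mcm2* and *Mcm4* on the left and the Tet genes with *Mbd3* on the right. On the left the points are low in replicate 1 and high in replicate 2 of both groups, and on the right EV RV replicate 1 lies highest for *Tet1*, *Tet3* and *Mbd3*.

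The promoter of *Dnmt1* at the most downstream of its 3 annotated starts (chr9:20952574-20952873, GRCm38.p6, RefSeq) is shown for the letters bound by E2F factors, which are known to drive S phase genes. TTTCCCGC, TTTCGCGC, TTTGCCGC and TTTGGCGC were searched on both strands, and capitals mark the matches, read 5′ to 3′ on the strand of the gene.
Dnmt1: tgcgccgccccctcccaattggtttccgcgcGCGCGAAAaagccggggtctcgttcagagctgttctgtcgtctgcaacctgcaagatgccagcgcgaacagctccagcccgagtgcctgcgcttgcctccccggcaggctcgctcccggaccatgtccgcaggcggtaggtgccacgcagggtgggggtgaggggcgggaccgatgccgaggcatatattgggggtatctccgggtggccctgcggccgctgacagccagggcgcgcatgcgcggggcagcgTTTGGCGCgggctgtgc
It held TTTGGCGC on the strand shown and TTTCGCGC on the other strand. At least 1 of these 8-letter words was found in 2.3% of all promoters of the same length. None was found in the windows of the other starts of *Dnmt1*, nor in those of *Dnmt3a*, *Dnmt3b*, *Tet1*, *Tet2*, *Tet3* and *Tdg*. A match of letters does not show binding. Binding by E2F factors and their part in the level of *Dnmt1* were not tested.

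*Tdg* (chromosome 10, 82629828 to 82650799, plus strand) was at 67.4 and 65.7 TPM under EV RV, against 58.6 and 58.1 TPM under Tox RV. The replicates lay close together and the groups were apart by a small step. For *Tdg* the log2 fold change was -0.10 (standard error 0.16, interval from -0.49 to 0.28, edgeR adjusted p = 0.917). With library totals in place of TMM it was 0.02, where the median of all genes moved to 0.12. *Tdg* has processed pseudogenes that are nearly identical to it, *Tdg-ps* (98.7% over 2968 bases), *Gm5597* (99.3% over 1193 bases) and *Gm9855* (99.2% over 1194 bases), so its counts are uncertain. *Gm9855* was listed with 125 to 160 counts, against 5159 to 9537 for *Tdg*. *Tdg* also shares 367 transcript bases with *Glt8d2* on the other strand.

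*Mbd2* (chromosome 18, 70568189 to 70626131, plus strand) was the gene of the 8 that lay higher in both Tox RV libraries. It was at 72.1 and 87.8 TPM under EV RV, against 88.2 and 88.5 TPM under Tox RV. EV RV replicate 1 was low and the other 3 libraries were nearly level. Its log2 fold change was 0.22 (standard error 0.19, interval from -0.24 to 0.69, edgeR adjusted p = 0.897), with 0.05 without EV RV replicate 1 and 0.42 without EV RV replicate 2.

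*Tet3* is overlapped on the other strand by *B230319C09Rik*, at 7.46 and 7.15 TPM under EV RV, against 4.28 and 4.12 TPM under Tox RV. For this gene the EV RV libraries lay together and above both Tox RV libraries (log2 fold change -0.72, standard error 0.22, edgeR adjusted p = 0.897). Its 214 to 528 counts compare with 5674 to 10237 for *Tet3*, and without strand the reads of the overlap cannot be divided.

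The other genes of the pathway were taken from 9 lists, and by edgeR or DESeq2 no gene on them had an adjusted p-value below 0.05. Of the 7 maintenance partners of Dnmt1, 6 had a log2 fold change above 0 and 1 below, with a median of 0.13 and with no gene whose groups were apart, against 36.0% of all genes. *Hells*, the chromatin remodeller needed for methylation of repeats, was at 0.29 (standard error 0.45). The median of this list was -0.12 without EV RV replicate 1 and 0.64 without EV RV replicate 2.

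Of the 7 other methyl-CpG readers, 2 lay above 0 and 5 below, with a median log2 fold change of -0.34. *Mbd3* and *Mbd4* were lower in both Tox RV libraries, as were 17.4% of all genes. *Mbd3*, a NuRD subunit that binds methylated DNA weakly, was at 69.1 and 49.4 TPM under EV RV, against 42.6 and 41.3 TPM under Tox RV (log2 fold change -0.41, standard error 0.20). EV RV replicate 1 was again the high library, and the median of the list was -0.04 without it. *Zbtb33*, which encodes the reader Kaiso, was at -0.66 (standard error 0.36), with the groups overlapping narrowly in CPM and apart in TPM. *Mbd1* was level at 29.3 to 31.0 TPM. The profile of *Mbd3* was the nearest to that of *Tet1* (root mean square difference 0.072), and that of *Tet1* the nearest to *Tet3* (0.108).

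Of the 11 NuRD subunits that work with Mbd2, 6 lay above 0 and 5 below, with a median log2 fold change of 0.0071. With single libraries left out the median lay between -0.06 and 0.09. In CPM the groups were apart in 2 of them, *Mta2* (higher) and *Hdac1* (lower), a smaller share than the 36.0% of all genes. In TPM they were apart in 3. The remodelling ATPase gene *Chd4* was at 191, 165, 183 and 168 TPM in the order EV RV replicate 1, EV RV replicate 2, Tox RV replicate 1, Tox RV replicate 2, and the histone chaperone gene *Rbbp7* was at 154, 229, 209 and 244 TPM. *Gatad2b* had the lowest log2 fold change, -0.74 (standard error 0.39). It was at 43.9 and 18.03 TPM under EV RV, against 17.5 and 17.1 TPM under Tox RV, with EV RV replicate 1 alone standing high. In CPM its groups overlapped, at 46.3 and 20.02 under EV RV, against 20.09 and 19.6 under Tox RV.

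Among 13 genes of base excision repair and the Gadd45 family, 7 lay above 0 and 6 below, with a median of 0.10 (0.21 without EV RV replicate 2 and 0.02 without EV RV replicate 1). *Polb*, the gap-filling polymerase, was higher in both Tox RV libraries (21.7 and 23.3 TPM against 26.2 and 28.9 TPM, log2 fold change 0.37, standard error 0.18). *Gadd45b*, a stress-induced gene linked to demethylation, was lower in both (132 and 112 TPM against 101 and 89.1 TPM, log2 fold change -0.28, standard error 0.17), as was *Gadd45a*. These were the 3 of 13 with groups apart, again a smaller share than the 36.0% of all genes. *Apex1* was level at 81.6 to 87.9 TPM, and *Neil2* was scarce, with 10 to 34 counts.

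Of the 9 Tet cofactors and regulators, 2 lay above 0 and 7 below, with a median of -0.30, which was 0.07 without EV RV replicate 1. *Idh1*, which makes 2-oxoglutarate in the cytosol, was the 1 gene of all 9 lists with an unadjusted p-value below 0.05 in edgeR, where 3.62% of all genes had one. It was at 2.24 and 2.65 TPM under EV RV, against 3.97 and 4.01 TPM under Tox RV, with each group close together and the groups apart. Its log2 fold change was 0.78 (standard error 0.25, edgeR adjusted p = 0.897). *Idh2*, the mitochondrial form, was at -0.0059 and *Ogt*, the sugar transferase that binds Tet proteins, at -0.11. *Cxxc4* had 51 counts in EV RV replicate 1 and 8 to 18 in the other libraries. The ascorbate transporter gene *Slc23a2* was lower in both Tox RV libraries (-0.30, standard error 0.16) and had the profile nearest to that of *Dnmt3b* (0.117).

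The S-adenosylmethionine cycle, which supplies the methyl group, leaned neither way, with 3 of 6 tested genes above 0 and 3 below and a median log2 fold change of -0.004, which was 0.20 without EV RV replicate 2. *Mat2a*, the synthetase, was at 189, 241, 231 and 200 TPM and *Ahcy*, which clears the product that inhibits methyltransferases, at 89.5, 145, 103 and 120 TPM in the order EV RV replicate 1, EV RV replicate 2, Tox RV replicate 1, Tox RV replicate 2. *Ahcyl2* was at -0.31 (standard error 0.46). Of the 5 genes on the list of the de novo cofactor and deaminases, 3 were tested and all 3 lay below 0 with the groups overlapping, *Apobec3* at 126 to 179 TPM, *Apobec1* at 2.46 to 5.17 TPM and *Apobec2* at 0.640 to 1.04 TPM. Their median was -0.20, and 0.05 without EV RV replicate 1.

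Germline genes that promoter methylation is known to silence in somatic cells stayed near the floor. All 12 were below 1 TPM in every library, as were 12316 of the 24369 genes of the expression tables. Only *Dazl*, at 3 to 20 counts, had enough counts to be tested (log2 fold change -0.52, standard error 0.88, edgeR adjusted p = 0.922). Methylation of these genes was not measured. *Ddx4* had 11 counts in each EV RV library and 4 in each Tox RV library, below the minimum for testing. *Asz1*, *Stk31* and *Slc25a31* were at 0 counts in all 4 libraries.

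**Figure D4:**
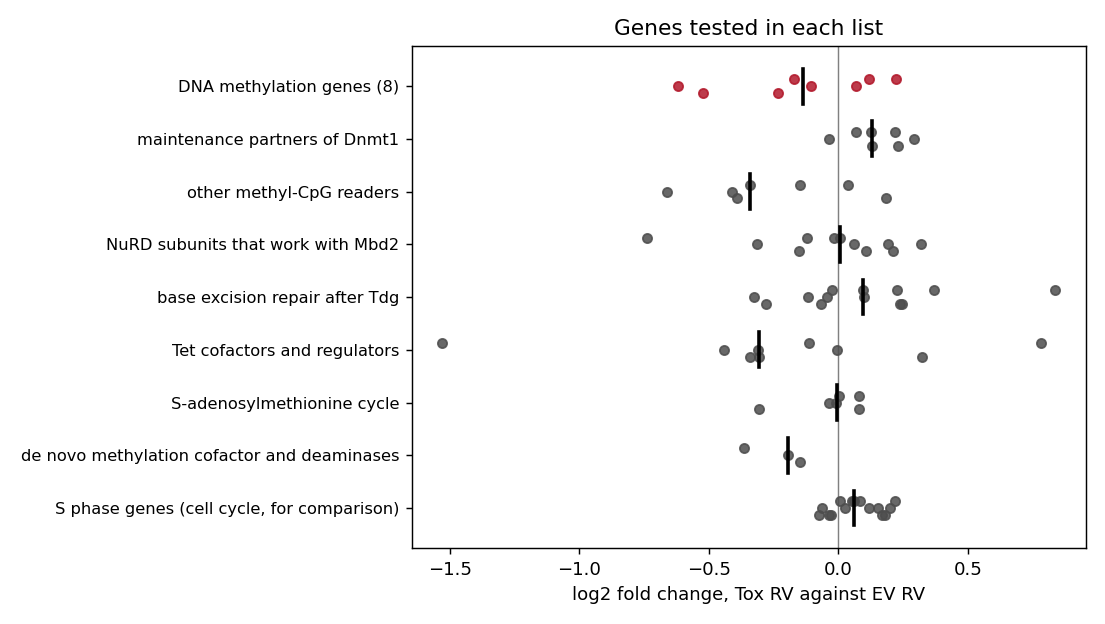
Log2 fold change, Tox RV against EV RV, of each gene tested in the 8 DNA methylation genes (red) and in 8 of the 9 related lists (grey, the germline list with its 1 tested gene not drawn), with a black bar at each median. The medians drawn lie between -0.34 and 0.13, and the lists of readers and of Tet cofactors have medians of -0.34 and -0.30.

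The S phase list, included for comparison, had 11 of 15 genes above 0 and 4 below, with a median of 0.06 that ranged from -0.23 to 0.54 with 1 library left out. *Mcm6* was at 210 and 258 TPM under EV RV, against 181 and 251 TPM under Tox RV, and *Mcm5* at 102, 173, 116 and 168 TPM. *Rrm1* and *Rrm2*, the subunits of ribonucleotide reductase, had log2 fold changes of 0.22 (standard error 0.37) and 0.20 (standard error 0.38). The profile nearest to *Mbd2* was that of *Usp7* (0.056), the nearest to *Dnmt3a* that of *Zbtb24* (0.067), and *Tet2* and *Tdg* were each the nearest to the other (0.067).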

How the data were processed

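Reads of the 4 libraries were checked with FastQC by the authors, aligned with bowtie to mm10 transcripts and quantified per gene with RSEM, 1 library per file; tool versions and the use of strand are not given in the sources used here. The deposited expected counts are RSEM estimates and are not normalized. The deposited TPM and FPKM values were computed by RSEM. A further deposited table named as TPM was not used, because its columns do not sum to 1000000.

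Rounded expected counts were fitted by edgeR 4.0.16 under R 4.3.3 (filterByExpr with a minimum count of 10, TMM, glmQLFit and glmQLFTest, no replicate block), with Benjamini-Hochberg adjustment over 14143 genes. DESeq2 1.42.0 and limma 3.58.1 served for alternatives. Standard errors came from the fold change and the F statistic, and 95% intervals from these. All 3 tools were tested on simulated data. Locations are from GENCODE, and transcript identity from BLAST 2.17.0. The 8 genes and the lists were chosen with earlier results of these data known. Named genes were the 8, *Tox*, and from each list the 2 most abundant and the 2 with the largest fold change, plus nearest profiles and overlapping genes or copies. *Rn45s*, *Mcm2*, *Mbd4*, *Mta2*, *Hdac1*, *Gadd45a*, *Ddx4*, *Dnmt3l*, *Asz1*, *Stk31*, *Slc25a31*, *Klrd1*, *Klrk1*, *Klrb1c* and *Eomes* were named after their values were seen. Some genes of the lists are not reported here by name.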

Additional observations from a re-analysis of the deposited data

How the results depend on the processing

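Alternatives were DESeq2, other scalings, no filter on low counts, leaving out *Rn45s*, limma on log2(TPM + 1) or log2(TPM + 0.1), a replicate block, and leaving out each library. *Dnmt3b*, *Tet1*, *Tet2*, *Tet3* and *Mbd2* kept their direction under all of these. The log2 fold change of *Dnmt3a* was -0.0209 and -0.0215 in the limma fits and that of *Tdg* 0.0168 with library totals. With each library left out, that of *Dnmt1* ranged from -0.16 to 0.35, that of *Dnmt3a* from -0.0871 to 0.21 and that of *Tet3* from -0.92 to -0.24, and the number of the 8 genes past an adjusted p-value of 0.05 was 0 to 1. Over all genes that number was 22 with DESeq2, 22 without the filter, 16 with the replicate block, 512 at an unadjusted p-value below 0.05, and 1 to 600 with each library left out (1 without EV RV replicate 1, 600 without EV RV replicate 2, 12 without Tox RV replicate 1 and 23 without Tox RV replicate 2). The cause was not tested. Under the replicate block 0 of the 8 passed, with a smallest adjusted p of 0.424. The replicate differences of the groups correlated at 0.302 across genes, but only 2 pairs exist and a number is not known to mark 1 mouse. With library totals, 3 of the 8 genes had groups apart in place of 6. The order of the 8 levels was the same with *Rn45s* left out and with FPKM.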
